A study of Mus musculus with 27 samples.

Results

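The immediate early and AP-1 genes described here are 10 transcription factor genes, namely Fos, Fosb, Fosl1, Fosl2, Jun, Junb, Jund, Atf3, Egr1 and Myc. They were chosen by name from the 54532 genes of a table of RNA levels in mouse muscle, and all 10 were found, each in 1 row. The table holds 27 samples of tibialis anterior muscle from 8-week-old male C57BL/6 mice. Of these, 5 samples came from muscle without injury, and 5, 6, 6 and 5 came from muscle explanted at 3, 7, 14 and 21 days after volumetric muscle loss (VML), in which 40% of the muscle had been cut away. The sources differ on whether the excision was made in 1 leg or in both, and give no strain, allele or drug that would set the groups apart beyond injury and time. The labels do not say that the samples of a group came from separate mice, so that p-values measure the spread between these samples. Levels are FPKM, the fragments counted per kilobase of gene and per unit of sequencing depth, so that levels of different genes can be compared per length.

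As background, AP-1 is a dimer of basic leucine zipper proteins in which a Fos protein (Fos, Fosb, Fosl1, Fosl2) pairs with a Jun protein (Jun, Junb, Jund), or Jun proteins pair with each other or with Atf3. Immediate early genes are switched on within minutes by growth factors, stretch, stress or depolarisation from factors already present in the cell, and most of their transcripts are short-lived. Egr1 is a zinc finger factor of the same early response, and Myc drives ribosome production and cell growth. In muscle these genes respond to contraction and to damage, and satellite cells, the stem cells of muscle, express Fos family genes as they leave quiescence. Many are also induced in macrophages and fibroblasts.

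Promoters are shown for the 4 members whose 250 bases before the transcription start held TGACG, the core of the cyclic AMP response element, through which CREB and ATF family proteins can bind. Sequences were those of RefSeq on GRCm38.p6, in which 7 of the 10 members were matched, and they are written 5′ to 3′ in the direction of transcription with this core on either strand, and the TATA box of Fos, in capitals. They are chr12:85473640-85473889 on the plus strand for Fos, chr7:19310046-19310295 on the minus strand for Fosb, chr8:84978749-84978998 on the minus strand for Junb and chr1:191183334-191183583 on the minus strand for Atf3.
Fos: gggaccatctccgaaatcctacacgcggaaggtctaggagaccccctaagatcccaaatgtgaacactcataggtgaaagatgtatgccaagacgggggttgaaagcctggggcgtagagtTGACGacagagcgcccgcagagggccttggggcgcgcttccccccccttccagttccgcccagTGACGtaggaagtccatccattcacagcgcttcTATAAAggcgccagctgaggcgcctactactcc
Fosb: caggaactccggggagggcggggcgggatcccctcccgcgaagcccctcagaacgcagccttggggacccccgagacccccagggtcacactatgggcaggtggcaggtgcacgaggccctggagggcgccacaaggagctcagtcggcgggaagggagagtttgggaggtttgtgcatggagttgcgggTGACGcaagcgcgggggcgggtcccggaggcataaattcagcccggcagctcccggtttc
Junb: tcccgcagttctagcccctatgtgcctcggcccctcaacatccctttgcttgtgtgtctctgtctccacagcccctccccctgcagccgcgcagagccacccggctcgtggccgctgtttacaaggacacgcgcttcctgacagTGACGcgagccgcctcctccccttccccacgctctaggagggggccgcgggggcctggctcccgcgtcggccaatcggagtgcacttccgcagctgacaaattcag
Atf3: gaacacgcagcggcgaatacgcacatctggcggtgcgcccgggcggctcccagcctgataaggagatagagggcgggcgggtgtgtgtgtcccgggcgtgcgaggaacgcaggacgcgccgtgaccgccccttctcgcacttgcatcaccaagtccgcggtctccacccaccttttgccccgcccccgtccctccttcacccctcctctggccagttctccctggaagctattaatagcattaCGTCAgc
The core lay at −129 to −125 and at −66 to −62 from the start of Fos, at −60 to −56 in Fosb, at −106 to −102 in Junb and at −7 to −3 in Atf3, and 17.8% of 32851 promoters of this length held it. TATAAA was found in Fos alone of the 7, at −33 to −28, and in 12.4% of all promoters. The full element TGACGTCA (in 1.55% of all promoters), the AP-1 site TGANTCA (6.75%), the E-box CACGTG (6.02%), the EGR site GCGTGGGCG (0.536%) and the CArG box (1.47%) were not found in these windows of the 7 members. Matches were sought on both strands, and the core is part of the full element. The promoters of Jun, Fosl2 and Jund held none of the letters searched. The windows of Jund (chr8:70697489-70697738, plus strand), Fosl2 (chr5:32136222-32136471, plus strand) and Atf3 belong to RefSeq start sites that differ from the outer ends of these genes in the FPKM table. Those of Fosl2 and Atf3 lie inside the gene as that table bounds it. The start sites of Fosb and Junb differ from these ends by far fewer bases, and those of Fos and Jun match them.

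Between 14376395 and 24436763 reads per sample were assigned to genes, as recovered from FPKM and gene length. The denominators behind the FPKM values ran from 0.747 to 1.48 of these totals, lowest without injury (mean 0.782) and highest at day 3 (mean 1.25). On the profile of all genes tested, 9 of the 27 samples lay nearer to the mean of another group than to their own. Replicate 5 of day 3 was nearest to day 7, and replicate 5 of day 7 was nearest to day 3. Replicate 3 of day 7 was nearest to uninjured muscle and replicate 6 of day 7 to day 21. Replicate 1 of day 14 was nearest to day 7, and replicates 3 and 6 of day 14 to day 21. Replicates 3 and 5 of day 21 were nearest to day 14. Myofibre genes (Acta1, Ckm, Myh4, Myh1, Mylpf and Tnnt3) summed to 65920 to 79660 FPKM without injury and 20266 to 53368 at day 3, so that the tissue label held. Macrophage genes (Adgre1, Cd68, Csf1r, Itgam, Lyz2 and Mrc1) summed to 16.9 to 24.7 FPKM without injury and to 311 to 2136 FPKM at day 3. Their sums were 44.7 to 2004 FPKM in day 7 samples, 43.7 to 101 in day 14 samples and 31.4 to 56.9 in day 21 samples. The skin markers Krt5 and Krt14 were at 0 in every group but day 3, where they reached 1.11 FPKM. In such bulk samples a change in the number of cells of a type and a change in RNA per cell cannot be told apart.

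**Figure D1:**
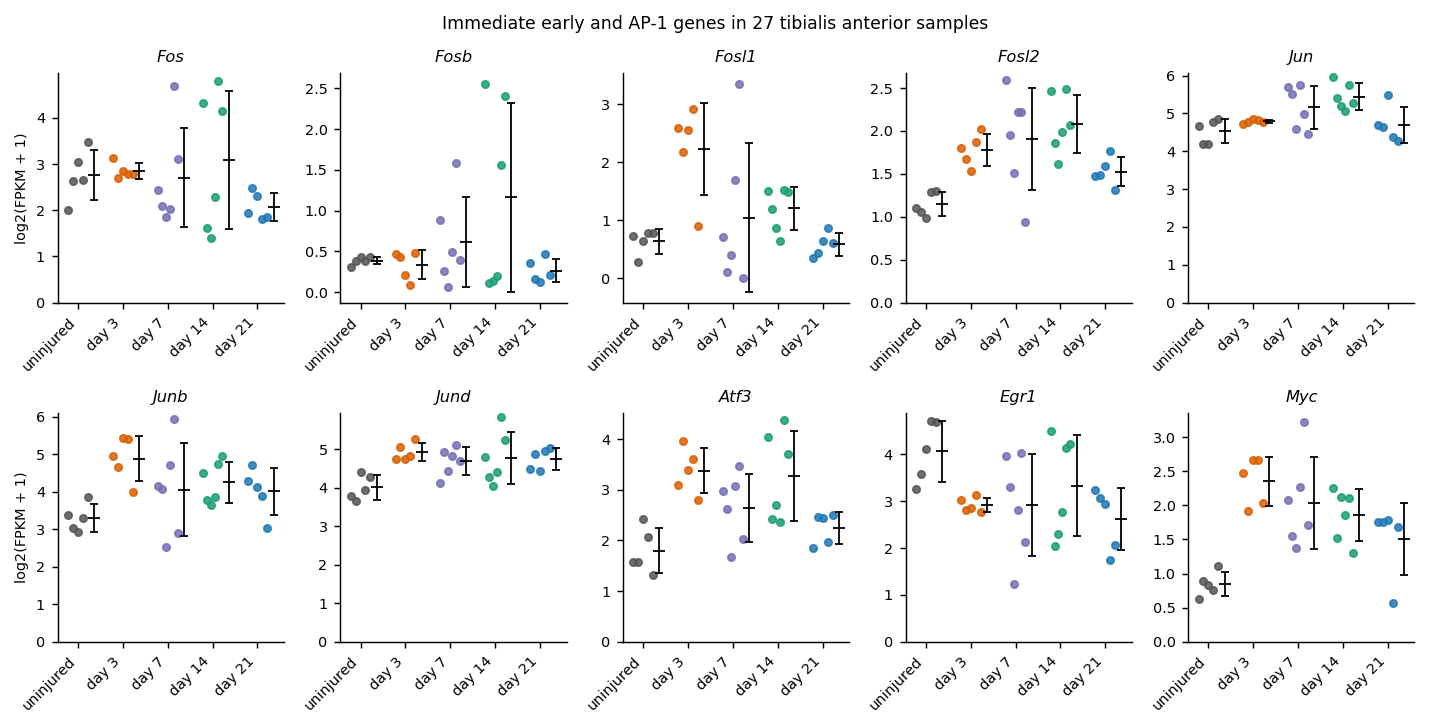
Level of each member in each of the 27 samples, as log2(FPKM + 1) on a linear axis, with points in replicate order and the group mean ± SD as a black bar beside them. Myc, Junb, Atf3 and Jund lay higher in all 5 day 3 samples than in any uninjured sample, Egr1 lay lower, and Fos and Fosb spread widely at day 14.

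Each time point was compared with uninjured muscle to ask when the early response genes differed from the resting level. At day 3, Fosl1, Fosl2, Junb, Jund, Atf3 and Myc were higher, and none of the 10 passed the test as lower. Of all 14630 genes tested, 43.2% differed at day 3 (23.4% higher), which is the background for this count of 6. At day 7, Fosl2, Jun, Jund and Myc were higher (4 of 10, with 29.4% of all genes called and 15% higher), and at day 14 Fosl2, Jun, Jund, Atf3 and Myc were higher (5 of 10, with 20.3% called and 9.02% higher). At day 21 none passed, against 3.43% of all genes, and 3 members had an unadjusted p under 0.05, as did 19.8% of all genes. The median difference of the 10 on the log2 scale was 0.77, 0.65, 0.84 and 0.27 at the 4 days, beside 0.012, 0.028, 0.020 and 0.014 over all genes tested. Without uninjured replicate 2 or 4, or day 7 replicate 2 or 4, the count at day 7 was 2, in fits whose share of all genes is not given here. Differences were tested with limma on log2(FPKM + 1) in 1 fit of all 27 samples, called at a Benjamini-Hochberg adjusted p under 0.05 over all genes tested. The added 1 makes fold changes of genes with low FPKM smaller than the ratio of their means.

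Fosl2, Jund and Myc passed in 3 of the 4 comparisons with uninjured muscle, Jun and Atf3 in 2, and Fosl1 and Junb in day 3 alone. Fos, Fosb and Egr1 passed in none. In 6 members all day 3 samples were above all uninjured samples (Fosl1, Fosl2, Junb, Jund, Atf3 and Myc), and in Egr1 all were below. Groups did not overlap in 36.3% of all genes at day 3. At day 14 the groups did not overlap for Fosl2, Jun and Myc, all higher, beside 15.7% of all genes, and at day 7 for Myc alone, beside 12.6%. At day 21 they did not overlap for Fosl2 and Jund, both higher, and Egr1, which was lower, beside 10.4% of all genes. Single members were also compared by the two-sided exact permutation test over samples. It cannot give a p below 0.00794 for 5 against 5 samples or 0.00216 for 6 against 5, and its p-values are printed without adjustment for the 80 such tests run.

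**Figure D2:**
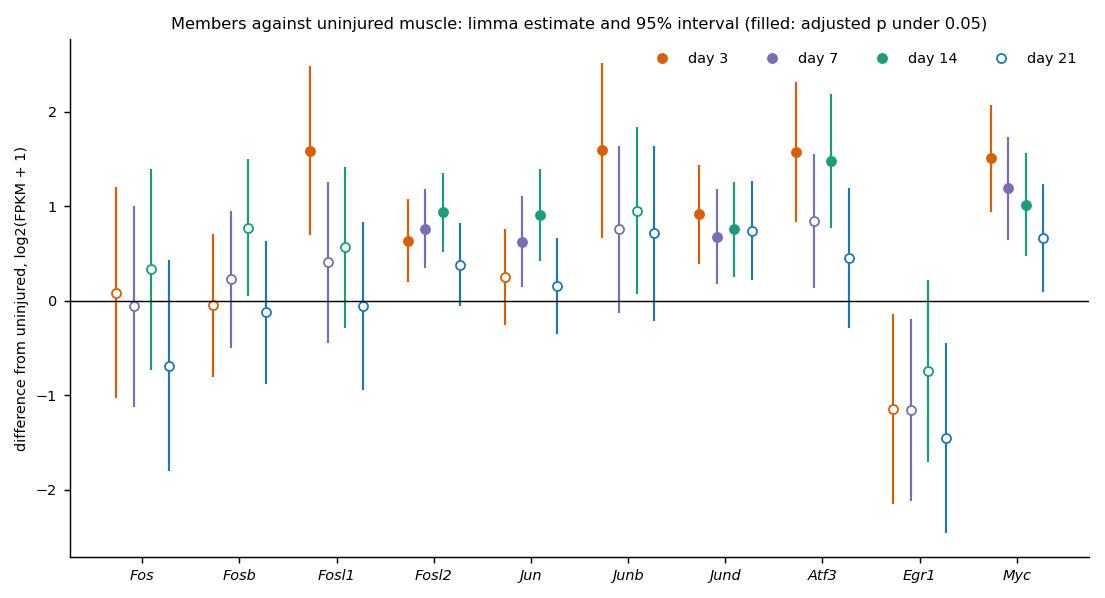
Difference of each member from uninjured muscle at the 4 time points, in log2(FPKM + 1) units, as the limma estimate with its 95% interval. Filled points passed at an adjusted p under 0.05. The estimates of Myc run from 1.51 at day 3 to 0.66 at day 21, while those of Egr1 lie below 0 at all 4 days.

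Fos, the founding partner of Jun in AP-1, did not pass the test against uninjured muscle at any day. The gene (ENSMUSG00000021250, chromosome 12, 85473890 to 85477273, plus strand) had 68 to 2051 reads per sample. In uninjured muscle its FPKM was 3.03, 5.19, 7.28, 5.28 and 10.2 in replicates 1 to 5, and at day 3 it was 7.82, 5.48, 6.20, 5.90 and 5.85. The day 3 values thus lay inside the range without injury. At day 7 the lowest, median and highest values were 2.62, 3.86 and 25.03, and at day 14 they were 1.63, 10.3 and 26.9. The highest sample at day 14 held 16.4 times the lowest. At day 21 the values were 2.82, 4.63, 3.93, 2.52 and 2.59. The log2 difference from uninjured muscle was 0.09 (95% interval −1.03 to 1.2, adjusted p = 0.916) at day 3, 0.33 (−0.74 to 1.40, adjusted p = 0.683) at day 14 and −0.69 (−1.80 to 0.43, adjusted p = 0.508) at day 21, where the exact permutation p was 0.0397. The estimate at day 3 was −0.10 without uninjured replicate 1.

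Fosb, whose truncated protein ΔFosB builds up with repeated stimulation in other tissues, was the lowest of the 10 members in uninjured muscle. It lies on chromosome 7 at 19302696 to 19310051 on the minus strand (ENSMUSG00000003545) and had 5 to 678 reads per sample. Its FPKM without injury was 0.241, 0.307, 0.341, 0.299 and 0.350, and at day 3 it was 0.384, 0.343, 0.158, 0.0633 and 0.399. At day 14 the values were 4.88, 0.0838, 0.0940, 0.146, 1.93 and 4.31 in replicates 1 to 6. Replicates 1, 5 and 6 were thus above every uninjured sample and replicates 2, 3 and 4 below all of them. Only 5 samples, 2 of day 7 and 3 of day 14, reached the FPKM of 0.5 that a gene needed in 5 samples to be tested, so Fosb entered the test through those samples. Its log2 difference at day 14 was 0.77 (SE 0.35, adjusted p = 0.118), and it became 0.98 without day 14 replicate 2 (adjusted p = 0.0466) or without day 14 replicate 3 (adjusted p = 0.0444).

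Fosl1, which encodes Fra-1 and lacks the transactivation domain of Fos, rose at day 3 and was back near its uninjured level at day 21. The gene (ENSMUSG00000024912, chromosome 19, 5447703 to 5455945, plus strand) had 0 to 550 reads per sample. Its FPKM was 0.660, 0.204, 0.549, 0.714 and 0.720 without injury and 5.05, 3.51, 4.86, 6.58 and 0.853 at day 3. Replicate 5 of day 3 stood closer to uninjured muscle than to the other 4, yet above all of it. In day 7 samples the lowest, median and highest values were 0, 0.471 and 9.25, the last in replicate 5. The log2 difference at day 3 was 1.59 (SE 0.43, adjusted p = 0.00436), a 3.01-fold rise. On day 7 the difference was 0.41 (SE 0.41, adjusted p = 0.487), and without replicate 5 of day 7 it was −0.06. At day 21 the values were 0.278, 0.352, 0.559, 0.819 and 0.525, all below those of day 3, and the difference between these days was −1.65 (SE 0.43, adjusted p = 0.00683, limma).

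Fosl2, which encodes Fra-2, rose at days 3, 7 and 14. It lies on chromosome 5 at 32135801 to 32157842 on the plus strand (ENSMUSG00000029135) and had 111 to 1306 reads per sample. Uninjured muscle had an FPKM of 1.15, 1.08, 0.977, 1.43 and 1.47, and at day 3 it was 2.48, 2.20, 1.90, 2.66 and 3.05. All day 3 samples were higher. At day 7 it ranged from 0.920 to 5.02 (median 3.27) and at day 14 from 2.06 to 4.62 (median 3.08), so that only day 7 overlapped with uninjured muscle. The log2 difference was 0.63 (SE 0.21, adjusted p = 0.0178) at day 3, 0.76 (SE 0.20, adjusted p = 0.00728) at day 7 and 0.93 (SE 0.20, adjusted p = 0.00296) at day 14. With quantile normalization the day 3 difference was 0.45 (adjusted p = 0.0936). At day 21 the values were 1.78, 1.81, 2.02, 2.40 and 1.48, each above the highest uninjured value of 1.47, with a difference of 0.38 (SE 0.21, adjusted p = 0.324, limma) and an exact permutation p of 0.00794.

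Jun, the most active Jun protein in transcription assays, was the highest of the 10 members in uninjured muscle and passed the test as higher at days 7 and 14 only. The gene (ENSMUSG00000052684, chromosome 4, 95049034 to 95052222, minus strand) had 648 to 4385 reads. It overlaps Junos on the other strand, whose FPKM did not exceed 3.90. Its FPKM without injury was 24.5, 17.4, 17.3, 26.3 and 27.7, and at day 3 it was 25.4, 26.3, 27.9, 27.4 and 26.3. The day 3 samples lay so close together that the SD of Jun was in the lowest 1.16% of all genes tested. At day 7 the lowest, median and highest values were 20.8, 37.3 and 52.9, and at day 14 they were 32.5, 39.5 and 61.8, above all uninjured samples. On the log2 scale it differed by 0.25 (SE 0.25, adjusted p = 0.437) at day 3 and 0.91 (SE 0.24, adjusted p = 0.00896) at day 14, with an exact permutation p of 0.00216 at day 14. At day 7 it was 0.63 (SE 0.24, adjusted p = 0.0469), and the call was lost without any 1 of uninjured replicates 1 to 4 or of day 7 replicates 1, 2, 4 and 5, at differences of 0.51 to 0.68 and adjusted p of 0.0508 to 0.123. When reads were scaled to each sample's own total, or to a common sum per sample, Jun passed at day 3 too, with differences of 0.89 and 1.04, while the median of all genes moved to 0.40 and 0.51.

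Junb, which can restrain Jun and is induced in cytokine signalling, rose at day 3. It lies on chromosome 8 at 84974484 to 84978718 on the minus strand (ENSMUSG00000052837) with 179 to 4865 reads. It overlaps Prdx2 on the other strand, which reached 99.2 FPKM, and the library did not keep strand, so that reads of the shared stretch cannot be assigned to 1 gene. Uninjured muscle had an FPKM of 9.36, 7.15, 6.63, 8.79 and 13.7, and at day 3 it was 29.9, 24.2, 42.5, 41.6 and 14.95. Every day 3 sample was higher, replicate 5 by the least. In day 7 samples the values ran from 4.74 through a median of 16.4 to 60.7, and at day 14 from 11.6 through 17.6 to 29.8. Its log2 difference was 1.59 (SE 0.45, adjusted p = 0.00567) at day 3, a 3.01-fold rise, 0.76 (SE 0.43, adjusted p = 0.186) at day 7 and 0.95 (SE 0.43, adjusted p = 0.115) at day 14. Without day 7 replicate 3, the lowest, the day 7 difference was 1.06 (adjusted p = 0.0428). At day 21 the values were 18.5, 25.5, 16.4, 13.7 and 7.28, with a difference of 0.71 (SE 0.45, adjusted p = 0.391).

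Jund, the Jun gene known for steady expression in resting cells, rose at days 3, 7 and 14. The gene (ENSMUSG00000071076, chromosome 8, 70698949 to 70700616, plus strand) had 283 to 1965 reads. Its FPKM was 12.7, 11.5, 20.3, 14.3 and 18.6 without injury and 26.1, 32.2, 25.7, 27.1 and 37.3 at day 3, with no overlap. At day 7 it ranged from 16.3 to 33.8 (median 26.2) and at day 14 from 15.5 to 56.4 (median 23.6), both overlapping uninjured muscle. The log2 difference was 0.91 (SE 0.26, adjusted p = 0.00528) at day 3, 0.68 (SE 0.24, adjusted p = 0.0390) at day 7 and 0.76 (SE 0.24, adjusted p = 0.0296) at day 14. The day 7 call was lost without uninjured replicate 1, 2 or 4 or day 7 replicate 2, 4 or 5 (0.58 to 0.66). The day 14 call was lost without uninjured replicate 1, 2 or 4 or day 14 replicate 5 or 6 (0.54 to 0.74). At day 21 all samples (21.4, 28.3, 20.5, 29.7 and 31.8) were above all uninjured samples, with a difference of 0.74 (SE 0.26, adjusted p = 0.102, limma) and an exact permutation p of 0.00794.

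Atf3, a stress-induced factor of the ATF/CREB family that pairs with Jun proteins, rose at days 3 and 14. It lies on chromosome 1 at 191170296 to 191218039 on the minus strand (ENSMUSG00000026628) and had 47 to 751 reads. Its FPKM without injury was 1.99, 1.996, 4.35, 3.21 and 1.49, and at day 3 it was 7.56, 14.5, 9.48, 11.2 and 6.00. No day 3 sample came down to the uninjured range. By day 7 the lowest, median and highest values were 2.21, 6.02 and 10.01, and at day 14 they were 4.13, 8.79 and 19.7. On the log2 scale it differed by 1.58 (SE 0.36, adjusted p = 0.000997) at day 3, a 2.98-fold rise, and 1.47 (SE 0.34, adjusted p = 0.00457) at day 14, a 2.78-fold rise. Between them, at day 7, it was 0.85 (SE 0.34, adjusted p = 0.0648). It became 1.002 without uninjured replicate 3 (adjusted p = 0.0454), 1.04 without day 7 replicate 3 (adjusted p = 0.0205) and 0.97 without day 7 replicate 6 (adjusted p = 0.0390). At day 21 the values were 2.59, 4.50, 4.43, 2.94 and 4.70, with a difference of 0.45 (SE 0.36, adjusted p = 0.515).

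Egr1 was the one member with estimates below uninjured muscle at all 4 days under the main scaling and all 3 others tried, although it passed the test at none. The gene (ENSMUSG00000038418, chromosome 18, 34859823 to 34864984, plus strand) had 104 to 2393 reads. Uninjured muscle had an FPKM of 8.51, 11.03, 16.3, 25.04 and 24.7, a 2.94-fold spread that put its SD above 97.2% of all genes tested. At day 3 it was 7.10, 6.03, 6.21, 7.82 and 5.77, and at day 21 it was 8.45, 7.32, 6.68, 2.37 and 3.18. All samples of both days were below all uninjured samples. At day 7 the values ran from 1.36 through a median of 7.43 to 15.3, and at day 14 from 3.15 through 11.1 to 21.5. Its log2 difference was −1.15 (SE 0.49, adjusted p = 0.0598) at day 3, −1.16 (SE 0.47, adjusted p = 0.0635) at day 7, −0.74 (SE 0.47, adjusted p = 0.266) at day 14 and −1.46 (SE 0.49, adjusted p = 0.0929) at day 21. The exact permutation p was 0.00794 at days 3 and 21. The day 3 difference was −1.35 (adjusted p = 0.0386) without uninjured replicate 1. At day 7 it was −1.36 without that sample (adjusted p = 0.0472), −1.36 without day 7 replicate 1 (adjusted p = 0.0390) and −1.38 without day 7 replicate 5 (adjusted p = 0.0379). At day 21 its estimate was in the lowest 0.144% of all genes tested.

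Myc rose at days 3, 7 and 14, each time with no overlap with uninjured muscle. It lies on chromosome 15 at 61985391 to 61990374 on the plus strand (ENSMUSG00000022346) with 20 to 791 reads. Its FPKM without injury was 0.553, 0.855, 0.784, 0.688 and 1.16, and at day 3 it was 4.53, 2.79, 5.34, 5.36 and 3.08. In day 7 samples the lowest, median and highest values were 1.60, 2.74 and 8.36, and at day 14 they were 1.47, 2.98 and 3.77. The log2 difference was 1.51 (SE 0.28, adjusted p = 0.000129) at day 3, 1.19 (SE 0.26, adjusted p = 0.00210) at day 7 and 1.02 (SE 0.26, adjusted p = 0.00914) at day 14, the smallest adjusted p of the 10 members at days 3 and 7. At day 21 the values were 2.38, 2.38, 2.44, 0.490 and 2.21, so that replicate 4 lay below every uninjured sample and the other 4 above all of them. The difference at day 21 was 0.66 (SE 0.28, adjusted p = 0.177), and 0.90 without replicate 4. None of the calls of Myc against uninjured muscle was lost when 1 sample was left out.

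Jun and Fos held a smaller part of their families in every day 3 sample than in any uninjured sample. Jun held 47.9% ± 5.69 (SD, n = 5) of the summed FPKM of Jun, Junb and Jund without injury and 30.8% ± 2.06 (n = 5) at day 3, with ranges of 39.2% to 53.2% and 28.5% to 33.5%. The share of Junb was 19.1% ± 2.92 and 34.5% ± 10.5 at these times, while the sum of the 3 genes was 47.2 ± 8.66 and 87.0 ± 8.504 FPKM. By day 14 the share of Jun was 49.0% ± 9.37 (n = 6), at a sum of 91.9 ± 29.1 FPKM. Fos held 72.8% ± 8.72 of the Fos family without injury and 48.2% ± 6.73 at day 3, again with no overlap (59.7% to 80.0% and 38.8% to 57.6%), and Fosl1 held 7.38% ± 3.83 and 30.3% ± 13.2. Shares do not depend on how a sample was scaled. They were not tested.

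**Figure D3:**
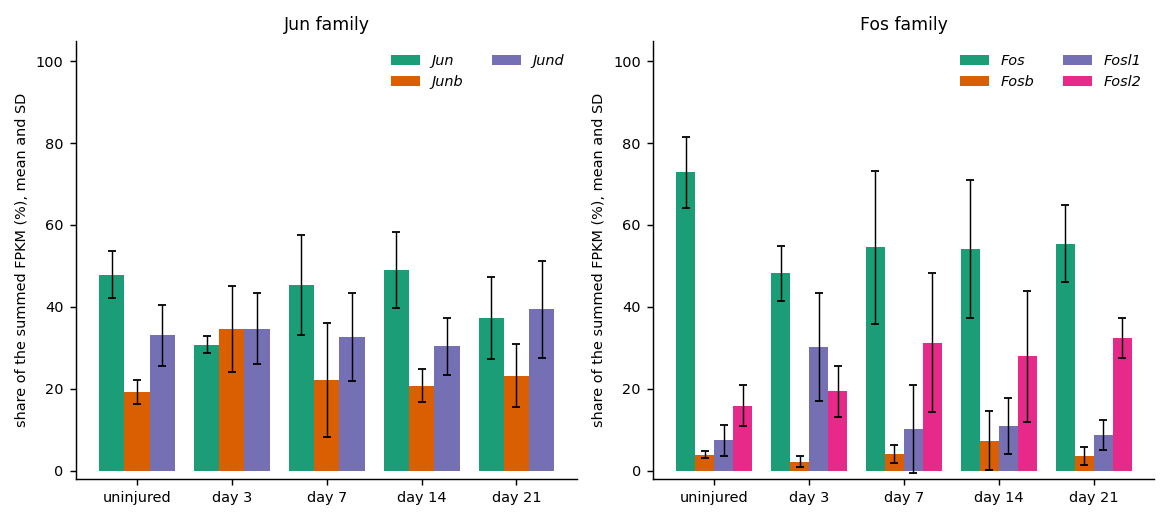
Share of each gene in the summed FPKM of its family, in percent, as the mean of 5 or 6 samples per group with SD bars. The Jun bar is lower at day 3 (30.8%) than without injury (47.9%), and the Fosl1 bar is higher (30.3% and 7.38%).

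Changes between time points were compared to ask whether the response receded. Between day 21 and day 3, Fosl1, Atf3 and Myc were lower (3 of 10, with 25.5% of all genes called and 16.2% lower) and none was higher. The log2 difference between these days was −1.65 (SE 0.43, adjusted p = 0.00683) for Fosl1, −1.13 (SE 0.36, adjusted p = 0.0230) for Atf3 and −0.84 (SE 0.28, adjusted p = 0.0267) for Myc. The call of Atf3 was lost without day 3 replicate 2 or 4 or day 21 replicate 1 or 4 (−0.98 to −1.07). That of Myc was lost without day 3 replicate 1, 3 or 4 or day 21 replicate 4 (−0.61 to −0.81). Without day 3 replicate 4 or day 21 replicate 4 only Fosl1 was left, in fits whose share of all genes is not given here. All day 21 samples were below all day 3 samples for these 3 genes and for Fos, beside 19.1% of all genes with groups apart, and Fos differed by −0.77 (SE 0.54, adjusted p = 0.309). Junb differed by −0.88 (SE 0.45, adjusted p = 0.154, limma). For Fosl2, Jun and Jund the differences were −0.25, −0.10 and −0.17 (adjusted p = 0.402 to 0.809).

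No member passed in limma between neighbouring time points. Between days 3 and 7 this was 0 of 10, beside 0.0478% of all genes, with 2 members at an unadjusted p under 0.05 beside 15.7% of all genes. Fosl1 passed as lower at day 7 without day 3 replicate 5, and Fosl1 and Junb did without day 7 replicate 5. The share of all genes in these fits is not given here, so the calls cannot be read as particular to the members. With replicate 5 of day 3 and replicate 5 of day 7 both left out 2 members passed, but so did 15.5% of all genes. Between days 7 and 14 it was 0 of 10 beside 0.335%, with no member under 0.05 unadjusted beside 12.4%, and between days 14 and 21 it was 0 of 10 beside 0% of all genes, with 4 members under 0.05 unadjusted beside 6.21%. By mean FPKM, Fosl1, Junb and Myc were in the order day 3, day 7, day 14, and then the 2 remaining groups. Fosl2 and Jun were highest at day 14, followed by days 7, 3 and 21 and then uninjured muscle. Fos, Fosb and Atf3 were also highest at day 14, Jund was highest at day 3, and Egr1 was highest without injury. Wherever groups next to each other in these orders were compared, the test was passed by Jund between day 7 and uninjured muscle and by no other member.

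**Figure D4:**
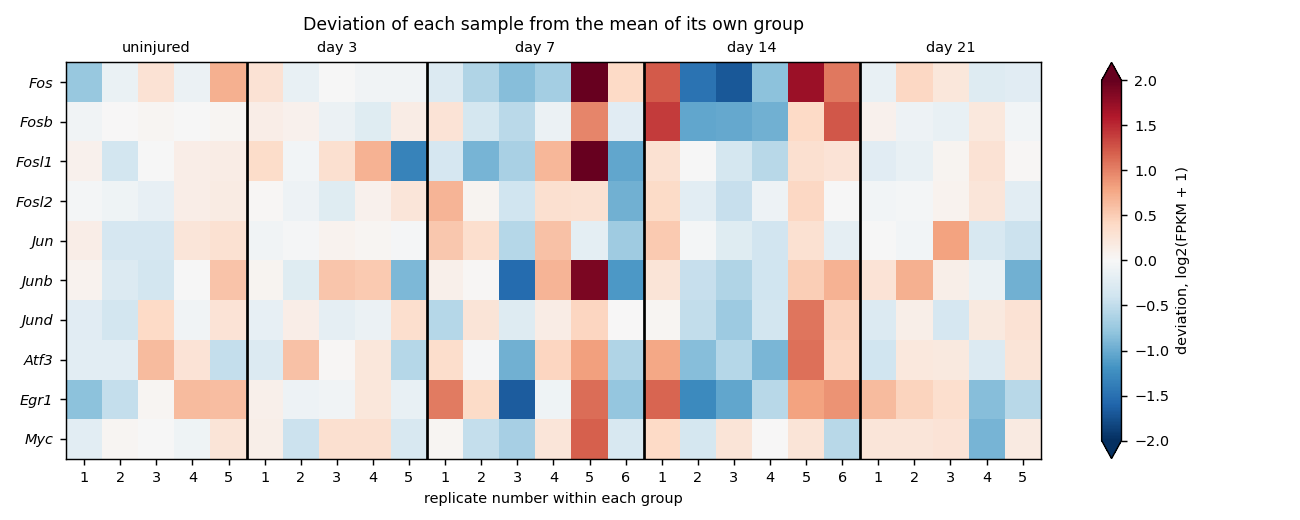
Deviation of each sample from the mean of its own group, in log2(FPKM + 1) units, for the 10 members (rows) and 27 samples (columns, by replicate number within each group). Colours stop at −2 and 2. Replicates 1 and 5 of day 14 lie above the day 14 mean for all 10 members and replicate 6 for 7, all but Fosl2, Jun and Myc, and replicate 5 of day 7 is dark red for Fos, Fosl1 and Junb.

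At day 14 the members varied between samples more than most genes. The SD of log2(FPKM + 1) over the 6 samples was above that of 99.8% of all genes tested for Fos, 99.2% for Fosb, 99.0% for Egr1, 97.9% for Atf3 and 94.6% for Jund. For Jun it was above 64.7% and for Fosl2 63.4%. The spread was also wide at day 7, above 98.6% of genes for Fosl1, 98.3% for Junb, 97.2% for Egr1 and 97.0% for Fos, and above 56.2% for Jund, the lowest. The same samples were high. In replicates 1 to 6 of day 14, Egr1 was 21.5, 3.15, 3.89, 5.83, 16.4 and 17.7 FPKM, Atf3 was 15.6, 4.37, 5.52, 4.13, 19.7 and 12.1, and Fos was 19.1, 2.07, 1.63, 3.86, 26.9 and 16.7. Replicates 1, 5 and 6 held the 3 highest values for 8 of the 10 members, all but Jun and Myc. This was true of 4.96% of all genes tested. These samples were singled out after the values were seen, and the shares are a description. With reads scaled to each sample's own total it was 7 members beside 3.21% of genes, and with a common sum per sample 6 members beside 2.77%. Fosb is in each of these counts. It passed the filter on FPKM only through replicates 1, 5 and 6 of day 14 and samples of day 7. Its place in the counts and its wide SD at day 14 were thus largely fixed by that filter.

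Other immediate early genes were high in the same samples. Of 30 tested, 23 had their 3 highest day 14 values in replicates 1, 5 and 6 (16 with each sample's own total and 14 with a common sum). Nr4a1, an orphan nuclear receptor gene, was 64.8, 21.5, 16.6, 15.9, 76.6 and 75.5 FPKM in replicates 1 to 6, and Ier2 was 22.2, 12.4, 10.1, 15.4, 42.5 and 42.7. Dusp1, the phosphatase that turns off the kinases upstream of AP-1, was 44.1, 18.9, 19.7, 18.1, 68.9 and 38.9. It was true of 3 of 13 AP-1 targets, of 2 of 12 feedback inhibitors (Dusp5 and Dusp8), of 2 of 13 genes of the Myc network (Mxd1 and Mycn) and of 1 of 18 upstream kinases and factors (Mkl2). None of 10 AP-1 partners or 14 Myc targets had this order. In the same order of samples, macrophage genes summed to 91.3, 101, 43.7, 81.9, 101 and 54.4 FPKM, and endothelial genes (Pecam1, Cdh5, Kdr and Tek) to 80.4, 43.3, 50.2, 66.5, 111 and 58.9. Myofibre genes summed to 36945, 53356, 58191, 48688, 39295 and 77710 FPKM. The part of cell content, depth or handling of the samples in this pattern was not tested.

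**Figure D5:**
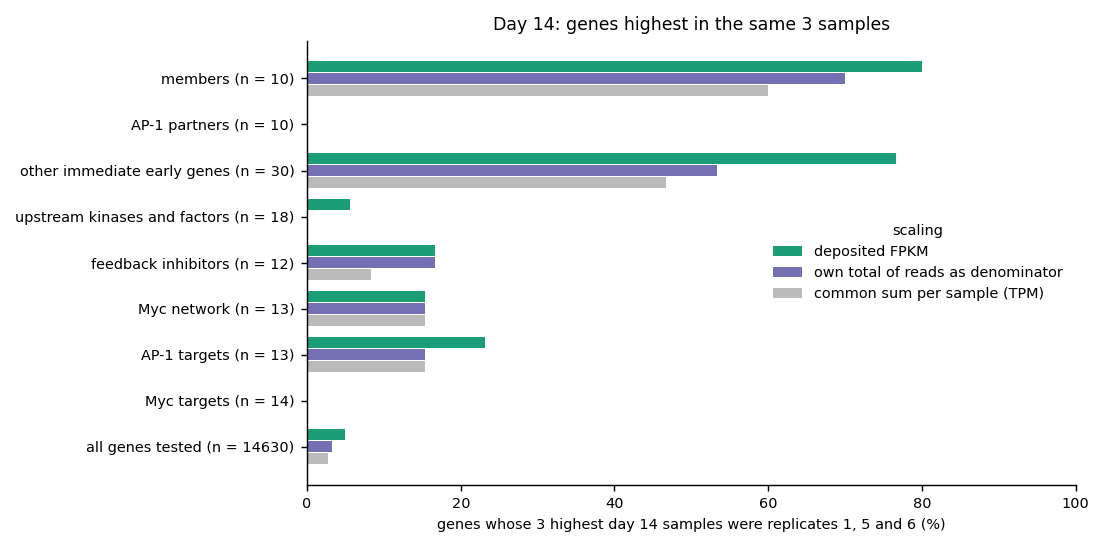
Share of genes, in percent, whose 3 highest day 14 values were in replicates 1, 5 and 6, for the 10 members, 7 lists of related genes and all 14630 genes tested, under 3 ways of scaling the reads. With the deposited FPKM the members are at 80% and other immediate early genes at 76.7%, while all genes tested are at 4.96%. The members include Fosb, which passed the filter on FPKM only through samples that include these replicates.

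Within groups, members moved together to different degrees. Over the deviations of 27 samples from their group means, given as a description without a test, Pearson's r was 0.82 between Fos and Fosb (Spearman's rho 0.62), 0.78 between Fosl1 and Junb (0.68) and 0.73 both between Fos and Egr1 (0.69) and between Junb and Egr1 (0.73). Without the 6 samples of day 14 these were 0.71, 0.78, 0.54 and 0.72 over 21 samples. Fosl2 and Jun had an r of 0.69 (rho 0.65). The lowest value was that of Jun and Jund, at 0.02 (rho −0.01). The points share library preparation and the scaling of each sample.

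By the same measure, the 2 genes outside the members most like Fos were Apold1 (r = 0.91), an endothelial early response gene, and Ier2 (0.85), and those most like Fosb were Amotl2 (0.79) and Apold1 (0.77). For Egr1 they were Cyr61 (0.82), a secreted matricellular protein gene, and Klf10 (0.80), and for Atf3 Pprc1 (0.83) and Errfi1 (0.79). Fosl1 was most like Tlr13 (0.94), a receptor gene of the innate immune system, and 2210406H18Rik (0.93), and Junb most like Vat1 (0.88) and Tgfb1 (0.88). Fosl2 was most like Plod2 (0.84), a collagen lysyl hydroxylase gene, and Mest (0.83), and Jun most like Kremen1 (0.87) and Rpusd2 (0.84). Jund was most like Mob3c (0.80) and Sigirr (0.79), and Myc most like Arhgap17 (0.87) and Snx1 (0.86).

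All 6 macrophage markers rose at day 3, and within groups they moved with some members. Over 27 deviations, r with the summed macrophage genes was 0.85 for Fosl1, 0.81 for Junb and 0.69 for Myc, and 0.35 for Fos, 0.24 for Fosb and 0.11 for Jund. Without the 2 samples farthest from the median of the marker sum these were 0.70, 0.68, 0.56, 0.21, −0.0018 and −0.04. Replicate 5 of day 3, with a macrophage sum of 311 FPKM beside 996 to 2136 in the other 4, had the lowest Fosl1, Junb, Atf3 and Egr1 of that day and the highest Fosb, Fosl2 and Jund. Replicate 5 of day 7, with a sum of 2004 beside 44.7 to 408, had the highest Fos, Fosb, Fosl1, Junb, Jund, Atf3, Egr1 and Myc of its day. Without both samples, 6 members were called at day 3, beside 43.3% of all genes. Myofibre genes moved the other way for some members, with an r of −0.74 for Myc, −0.66 for Fosl1 and −0.64 for Junb. For Fos, Fosb and Jund it was −0.29, −0.22 and −0.02. Without the 2 samples farthest from the median of the myofibre sum these values were, in the same order, −0.63, −0.56, −0.44, −0.06, −0.03 and 0.15. Fibroblast genes (Pdgfra, Dcn, Lum and Col3a1), 3 of 4 higher at day 3, summed to 32.0 to 83.4 FPKM without injury and 183 to 402 FPKM at day 3. The muscle stem cell genes Pax7, Myf5 and Myod1, 2 of 3 higher at day 3, summed to 15.3 to 23.9 and to 35.0 to 98.4 FPKM. The part of cell content in the day 3 differences was not tested.

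Other genes of the pathway were counted from lists of known roles. Of 18 upstream kinases and factors, 1 rose and 6 fell at day 3, beside 43.2% of all genes called, with a median log2 difference of −0.30. Mapk3, which encodes the kinase ERK1, rose by 0.87 (38.1 and 20.6 FPKM at day 3 and without injury), and Mapkapk2, Mapk9 and Mapk14, the last the gene of the stress kinase p38α, fell by 0.84, 0.67 and 0.62. Of 12 feedback inhibitors, 3 rose and 2 fell. Dusp5 (1.35), Nab2 (1.11), a corepressor of Egr proteins, and Dusp2 (0.99) rose, while Dusp8 fell by 1.80, from 11.1 ± 1.54 to 2.52 ± 0.802 FPKM (SD, n = 5), and Dusp10 fell by 0.75. At day 14 these lists had 0 higher and 5 lower of 18, and 3 higher and 1 lower of 12, beside 9.02% of all genes higher and 11.3% lower.

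Among 30 other immediate early genes tested, 9 rose and 3 fell at day 3, 8 rose and 1 fell at day 7, 9 rose and 1 fell at day 14 and 1 rose at day 21. These are 40%, 30%, 33.3% and 3.33% of the list, beside 43.2%, 29.4%, 20.3% and 3.43% of all genes. Socs3, an inhibitor of cytokine signalling, rose at day 3 by 1.69 on the log2 scale (1.02 ± 0.366 to 5.58 ± 1.62 FPKM, SD, n = 5), and Ctgf and Ier3 by 1.55 and 1.13. Nr4a1 fell by 1.54, from 43.9 ± 10.9 to 14.8 ± 5.16 FPKM, Gadd45b by 1.03 and Dusp1 by 0.85. The adjusted p of these 3 was 0.00616, 0.00231 and 0.0365 (limma). Of 10 AP-1 partners tested, 4 rose and 2 fell at day 3, beside 23.4% of all genes higher and 19.8% lower. Batf (1.37), Jdp2 (1.35), a repressor of AP-1, and Batf3 (1.12) rose, and Maf and Mafk fell by 0.77 and 0.41.

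Genes described as AP-1 targets rose at day 3 in 12 of 13 tested, with a median log2 difference of 2.24. The count was 9 at day 7, 4 at day 14 and 1 at day 21, beside 43.2%, 29.4%, 20.3% and 3.43% of all genes called at the 4 days. Spp1, which encodes osteopontin, rose by 6.31 (2.51 ± 1.90 to 413 ± 296 FPKM, SD, n = 5), Timp1, an inhibitor of matrix proteases, by 4.46 and Hmox1, the haem oxygenase gene, by 4.11. Between day 21 and day 3, 12 of the 13 fell, beside 25.5% of all genes called and 16.2% lower. Many of these genes are also expressed by macrophages, whose markers rose at the same time, and the part of AP-1 in their rise was not tested. Of 14 Myc targets, 9 rose and 2 fell at day 3, 4 rose and 2 fell at day 7, and none passed at day 21. These are 78.6%, 42.9% and 0% of the list, beside 43.2%, 29.4% and 3.43% of all genes. Srm (1.67), a polyamine synthesis gene, Cdk4 (1.43) and Eif4a1 (1.35) rose, and Ldha and Eif4e fell by 1.08 and 0.47. In the Myc network, 53.8% of 13 genes were called at day 3, beside 43.2% of all genes. Of the 13, 3 rose (Mxd3 by 1.74, Mycl by 0.73 and Mxd4 by 0.38) and 4 fell. Among the latter were Mxi1, an antagonist of Myc, by 0.89, Mlxip by 0.63 and Fbxw7, which marks Myc for breakdown, by 0.59.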

How the data were processed

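RNA of 27 tibialis anterior samples was sequenced from non-directional, poly-T selected libraries. The authors aligned reads with HISAT2 2.0.5, counted them per gene with featureCounts 1.5.0-p3, as the submitters' processing notes name them, and deposited FPKM values in a single table that also gives each gene's length and position. FPKM was computed from gene length and mapped reads. Why its denominators depart from the sample totals, and the genome build, are not given in the sources used here, but positions were those of GENCODE M21 (GRCm38) for 98.3% of 54409 genes found there. Times gene length, FPKM gave whole reads (within 0.05 reads) in all genes above 0. Groups and replicate numbers were read from sample titles.

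The 14630 genes that reached an FPKM of 0.5 in 5 or more samples were tested on log2(FPKM + 1) with limma 3.58.1 (trend, R 4.3.3), as moderated statistics with no covariate. The fit was tested on simulated data. The SE of a member rests on the spread of log2(FPKM + 1) between samples, and its reads are given beside it. The SE did not follow the reads. At day 3 it was 0.45 for Junb, with 179 to 4865 reads, and 0.28 for Myc, with 20 to 791. Single members were also compared by exact permutation tests (scipy 1.17.1). The 10 members and all lists were chosen with earlier results of these data known. The text names the members, up to 3 highest and 3 lowest called genes of each list at day 3, and the 2 genes most like each member. Genes named for their day 14 samples were chosen after their values were seen. Alternatives were the pseudocount, the filter, the scaling, weights, a replicate block, fewer groups and leaving out each sample, and the pair of samples left out together was chosen after seeing the data. Promoters were those of RefSeq.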

Additional observations from a re-analysis of the deposited data

Results flagged for a closer look

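Myc in replicate 4 of day 21 was 0.490 FPKM (20 reads), while the next lowest sample of that day was at 2.21 FPKM. On the scale of log2(FPKM + 1) the gap took up 0.918 of the whole range of the 5 samples. It was the 1 outlier among 50 sets of values, 10 members in 5 groups, in which chance alone would flag about 1 in 20.

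The change from uninjured muscle differed between days 21 and 3 for 3 members in the limma contrast of these days, by −1.65 on the log2 scale for Fosl1, −1.13 for Atf3 and −0.84 for Myc.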

How the results depend on the processing

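For the 50 differences of single members reported, 1195 values were recomputed under 41 alternatives. Of these, 1096 kept their direction and their side of the threshold, 39 lost the threshold, 38 gained it, and 22 changed sign, none of them for a difference that had passed. Counts of members called moved by more than 1.5 times as follows. With no filter on low values 2 passed at day 7 and 1 between days 21 and 3, beside 11.1% and 10.7% of all genes then tested. With a common sum per sample (TPM) 5 passed between days 21 and 3, beside 34.2% of all genes. With sample quality weights 4 passed at day 21 (3 higher, 1 lower), beside 16.9%, and 1 between days 7 and 3, beside 12.9%. When each fit held 2 groups only, 2 passed at day 21, beside 10.1%. In the main fit these shares were 29.4% at day 7, 3.43% at day 21, 0.0478% between days 7 and 3 and 25.5% between days 21 and 3. Leaving out 1 sample gave 2 to 6 at day 7, 1 to 3 between days 21 and 3 and 0 to 2 between days 7 and 3. The share of all genes in those fits is not given here, so these shifts cannot be read as particular to the members. Leaving out both replicates 5 of days 3 and 7 gave 2 between these days, beside 15.5% of all genes. The cause was not tested.

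For pairs of samples with the same number, the r of their deviations ran from −0.52 to 0.57 (51 pairs, 15 above 0.1, mean 0.022). Other pairs had a mean of −0.003 (240 pairs, 55 above 0.1). Whether samples with the same number share an animal or a processing run cannot be told from these values. With a replicate block by number 1 member passed at day 21 (Jund), beside 5.43% of all genes. With a block by the letter in the descriptions 1 passed at day 21 (Myc), beside 8.43%, and 1 between days 21 and 3 (Fosl1), beside 20%.

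Of the differences that changed sign, Fosb at day 3 was 0.11, Fos at day 7 was 0.55 and Fosl1 at day 21 was 0.015 with a common sum per sample, and 0.079, 0.41 and 0.011 with each sample's own total. Fosb between days 21 and 3 was 0.066 with quantile normalization, Fos at day 14 −0.13 with quality weights, Fosl1 at day 21 0.028 and Jun between days 21 and 3 0.020 with the letter block, and Fosl1 at day 7 −0.057 without both replicates 5. Leaving out 1 sample spanned 0 for Fos at day 3 (−0.10 to 0.26), day 7 (−0.46 to 0.12) and day 14 (−0.011 to 0.67), Fosb at day 3 (−0.088 to 0.011), Fosl1 at day 7 (−0.057 to 0.61), and Jun at day 21 (−0.043 to 0.26) and between days 21 and 3 (−0.29 to 0.010).

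Scaling moved all genes. At day 3 their median was 0.012 with the deposited FPKM, −0.12 with quantile normalization, 0.51 with a common sum and 0.40 with own totals, and 54.1%, 42.6%, 95.5% and 91.4% of called genes were higher. At day 7 the last 2 gave 96.8% and 92.7% beside 51.0%, at day 14 94.0% and 88.8% beside 44.5%, and at day 21 85.7% and 79.7% beside 50.8%. Relative to the median of all genes, 8 members stood above it at day 3 under each of the 4 scalings. Of the members 6, 5, 7 and 7 were called, beside 43.2%, 44.5%, 49.1% and 48.9% of all genes. Low reads limit Fosb, with 5 reads in its lowest sample, Fosl1 and Myc.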
